A study of Mus musculus with 4 samples.

Results

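TIGIT, CD226, CD96, LAG-3, TIM-3 and VISTA are surface receptors that tune how strongly a T cell responds, and their genes are Tigit, Cd226, Cd96, Lag3, Havcr2 and Vsir. These 6 genes were taken by symbol from 55536 annotated genes and were all measured, with 23 annotated transcripts among them. PolyA-selected RNA had been sequenced from inflammation-experienced regulatory T cells (Treg), CD4 T cells that restrain immune responses, of a male adult mouse of 6 months. Its strain is Foxp3CreERT2 x Rosa26YFP, in which an inducible Cre recombinase is driven from Foxp3, the gene of the Treg lineage factor, and a yellow fluorescent reporter sits in Rosa26. The labels name 1 biosample with 4 technical replicates, called libraries 1 to 4 here, and trace the primary cells to bone marrow haematopoietic cells. They describe neither the inflammation nor the sorting gate. There was therefore 1 group and no comparison between conditions. Every p-value below rests only on the 4 libraries of this biosample, whose differences may be technical, and none speaks for other mice.

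TIGIT, CD226 and CD96 compete for the same ligands, chiefly the poliovirus receptor encoded by Pvr: CD226 gives an activating signal, TIGIT an inhibitory one. LAG-3 is a relative of CD4 that binds MHC class II, TIM-3 binds galectin-9 among other ligands, and VISTA is a B7-like protein that binds PSGL-1, the product of Selplg. In Treg, TIGIT and LAG-3 are known as marks of activated cells that take part in suppression.

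The coding ends of these RNAs, which encode the receptors' intracellular tails, differ from one another. The last 120 coding bases before the stop codon of the first-numbered transcript of 5 genes, which leads by counts in each, are printed with in-frame tyrosine codons (TAT or TAC) in capitals, since phosphorylated tyrosines in such tails recruit adaptors and phosphatases. They were read from the GENCODE M21 transcripts (mm10), each as the coding strand, and the spans below include any intron.
Tigit-201: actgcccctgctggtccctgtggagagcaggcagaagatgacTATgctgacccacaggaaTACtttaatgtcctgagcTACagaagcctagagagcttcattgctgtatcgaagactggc
Cd96-201: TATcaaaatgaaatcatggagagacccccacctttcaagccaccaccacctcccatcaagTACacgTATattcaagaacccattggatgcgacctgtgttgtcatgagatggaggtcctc
Lag3-201: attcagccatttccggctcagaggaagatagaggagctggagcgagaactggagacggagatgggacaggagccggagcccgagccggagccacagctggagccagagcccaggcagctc
Havcr2-201: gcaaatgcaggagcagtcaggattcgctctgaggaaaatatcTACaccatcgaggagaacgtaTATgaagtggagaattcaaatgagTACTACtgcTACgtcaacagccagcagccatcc
Vsir-201: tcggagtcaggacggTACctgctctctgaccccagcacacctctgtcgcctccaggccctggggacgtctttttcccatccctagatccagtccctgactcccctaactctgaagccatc

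These lie at chr16:43649004-43649123 for Tigit (minus strand), chr16:46035876-46038456 for Cd96 (minus), chr6:124904445-124904564 for Lag3 (minus), chr11:46479324-46479443 for Havcr2 (plus) and chr10:60368641-60368936 for Vsir (plus). The stretch held 3 tyrosine codons in Tigit and 3 in Cd96, 5 in Havcr2 and 1 in Vsir. Among 21515 protein-coding genes, 12.3% had at least 3 tyrosine codons in their last 40 codons and 1.45% had at least 5. Lag3 had none, as did 36.1% of genes. Its last 40 codons held 12 glutamate codons (GAA or GAG). At least 12 there, a threshold set from Lag3 itself, were held by 0.428% of genes. Proline codons numbered 8 in Lag3, against 9 in Cd96, 9 in Vsir, 3 in Tigit and 1 in Havcr2. These counts describe letters, and no signalling was measured. Cd226 is named without its sequence.

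Levels are given in TPM (a share of all transcripts, corrected for length) from the deposited gene table. By mean TPM in that table, Tigit was the most abundant of the 6 receptor RNAs. Vsir, Cd96 and Cd226 followed within a narrow band, Lag3 was lower, and Havcr2 rested on few reads. Without length correction Vsir and Cd96 stood above Tigit, and the middle of the order differed between tables, as given below. Total expected counts in genes were 6648385 to 9341328 a library. In bulk RNA, fewer cells with a transcript and less transcript per cell cannot be told apart.

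Tigit (ENSMUSG00000071552.5, chr16:43648867-43664146, minus strand) stood at 234, 198, 434 and 331 TPM in libraries 1 to 4, a mean of 299 ± 106 TPM (SD, n = 4). It ranked 370 of 22015 protein-coding genes by mean TPM. Libraries 3 and 4 were both above libraries 1 and 2.

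Cd226 (ENSMUSG00000034028.16, chr18:89176967-89272229, plus strand), the activating counterpart of Tigit, stood at 110.5, 115, 106 and 119 TPM, a mean of 113 ± 5.40. Cd96 (ENSMUSG00000022657.9, chr16:46035657-46120251, minus strand), the other receptor of the Pvr product, stood at 111, 122, 138 and 120 TPM, a mean of 123 ± 11.2. The ranges of Cd96 and Cd226 overlapped, and they ranked 1031 and 1116.

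Within each library Tigit exceeded both. On the log2(TPM + 0.1) scale Tigit over Cd226 was 1.08, 0.79, 2.03 and 1.47 in libraries 1 to 4, a mean of 1.34 ± 0.54 (SD, n = 4), or 2.54-fold. Tigit over Cd96 was 1.22 ± 0.43, higher in 4 of 4 libraries. Cd96 over Cd226 was 0.12 ± 0.17, so these neighbours did not differ beyond their spread. A pair is called separated here only where its sign was the same in all 4 libraries and the mean difference exceeded 2 SD.

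With 4 libraries, the exact permutation test that flips the signs of the log2 ratios (two-sided) cannot go below p = 0.125, so no ratio could pass a threshold of 0.05. By the descriptive rule, 5 of the 7 ratios examined were separated. The excess of Tigit over both depended on the length correction. As CPM (counts scaled to a common library total), without that correction, the log2 ratio was 0.12 ± 0.39 to Cd226 and -0.20 ± 0.43 to Cd96. The annotated transcript of Tigit has 919 bases and that of Cd96 has 2184.

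Lag3 (ENSMUSG00000030124.2, chr6:124904361-124911705, minus strand) stood at 29.9, 19.2, 29.0 and 24.4 TPM, a mean of 25.6 ± 4.90, and ranked 4286. Its RNA was lowest in library 2. It rested on 242 to 405 expected counts a library.

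Lag3 over Tigit was -3.49 ± 0.42 on the log2 scale, lower in 4 of 4 libraries. Against its relative Cd4, the coreceptor gene, at 516, 495, 309 and 318 TPM, Lag3 was at -3.97 ± 0.55. Against Foxp3, at 20.3, 21.7, 32.8 and 36.4 TPM, Lag3 was higher in library 1 and lower in the other three, and its mean log2 ratio of -0.09 ± 0.47 was within the spread. Tigit over Foxp3 was 3.40 ± 0.27, higher in 4 of 4 libraries. Foxp3, like Tigit, was higher in libraries 3 and 4 than in libraries 1 and 2, and Cd4 was lower there.

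Havcr2 (ENSMUSG00000020399.14, chr11:46454935-46481255, plus strand) stood at 1.76, 0.950, 1.23 and 1.30 TPM, a mean of 1.31 ± 0.336, and ranked 10275. It rested on 31, 19, 24 and 18 expected counts. For the 18 counts of library 4 the exact Poisson 95% interval was 10.7 to 28.4, which covers counting error only. The 4 libraries could not be told apart at this depth.

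Vsir (ENSMUSG00000020101.14, chr10:60346851-60372684, plus strand) stood at 165, 143, 137 and 141 TPM, a mean of 146 ± 12.3, and ranked 853. It lay within Cdh23, a cadherin gene on the opposite strand at 4.65 ± 0.321 TPM. None of its 5014 annotated exon bases lies in an exon of Cdh23.

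**Figure D1:**
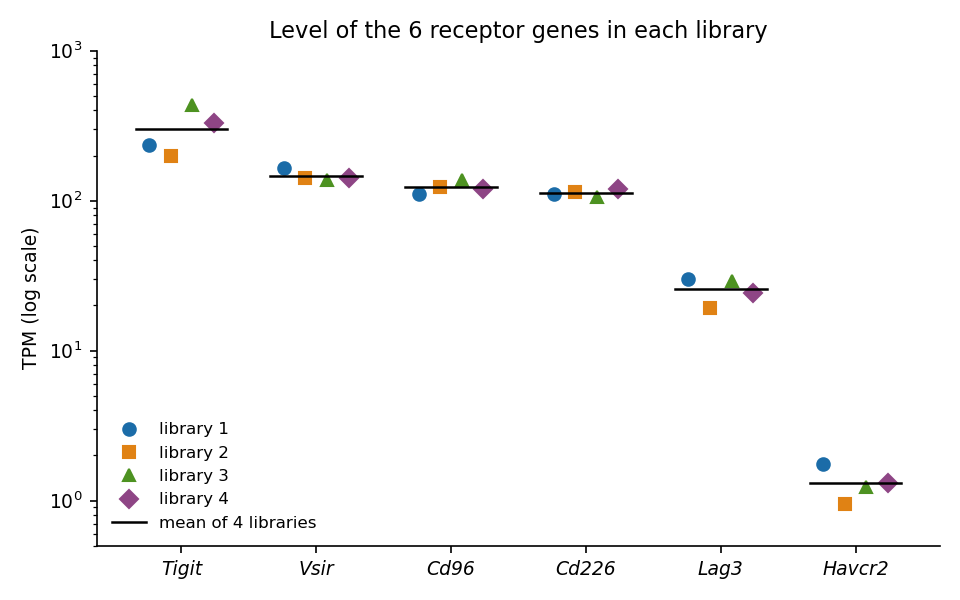
TPM of the 6 receptor genes (log axis) in each of the 4 libraries, shown as points, with the mean as a bar. Tigit is spread from 198 to 434 TPM, Vsir, Cd96 and Cd226 all sit between 106 and 165, Lag3 between 19.2 and 29.9, and Havcr2 between 0.950 and 1.76.

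The order Tigit, Vsir, Cd96, Cd226, Lag3, Havcr2 held in libraries 1, 2 and 4. In library 3 Cd96 was just above Vsir, by less than 1 TPM. Among the 5 neighbouring pairs, Cd226 over Lag3 (2.15 ± 0.34 on the log2 scale) and Lag3 over Havcr2 (4.20 ± 0.19) were separated. Tigit over Vsir was 0.97 ± 0.58, higher in 4 of 4 libraries yet within 2 SD. As CPM, without length correction, it was -0.27 ± 0.64 with Tigit lower in 3 of 4 libraries, and by mean CPM both Vsir and Cd96 stood above Tigit. Vsir over Cd96 was 0.26 ± 0.24, higher in 3 of 4, and with Cd96 over Cd226 it was within its spread.

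The share of counts of 5 of the 6 genes differed between libraries at an adjusted p under 0.05, where 68.6% of all 13045 genes tested differed. A count near that share is no property of the receptors. The test was a likelihood ratio test of a Poisson model on scaled library sizes, adjusted by Benjamini-Hochberg over all genes. It counts reads as independent and therefore calls differences between libraries that are small in size.

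Tigit moved most: its CPM in library 3 was 1.97 times that in library 2 (adjusted p = 3.17e-114, likelihood ratio test). All pairs of libraries differed for Tigit except libraries 1 and 2, for which the adjusted p was 0.293 by the same likelihood ratio test. Of all genes tested in a pair, 39.5% differed between libraries 1 and 2, 44.1% between 1 and 3, 42.9% between 1 and 4, 43.8% between 2 and 3, 42.6% between 2 and 4 and 20.4% between 3 and 4. Once counting error was removed, its SD over libraries was 0.47 on the log2 scale. That is larger than in 96.2% of the 1876 genes within 2-fold of its count, whose median was 0.17.

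Vsir, Cd96, Cd226 and Lag3 varied about as much as genes of similar count. The highest over lowest CPM was 1.33 for Vsir (highest in library 1), 1.27 for Cd96 (library 3), 1.26 for Cd226 (library 4) and 1.37 for Lag3 (library 1). By the likelihood ratio test their adjusted p-values were 7.02e-18, 9.03e-14, 1.16e-07 and 0.000174 in that order. Their SD beyond counting error exceeded that of 51.0% of comparable genes for Vsir, 44.6% for Cd96, 35.8% for Cd226 and 50.7% for Lag3. Havcr2 was at 1.60 with an adjusted p of 0.461 by the likelihood ratio test. Its SD did not exceed counting error, where the median SD beyond it was 0.32 on the log2 scale in genes of similar count.

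The call of Lag3 rested on library 2: without that library its adjusted p in the likelihood ratio test was 0.131, and 4 of the 6 genes were called, where 55% of all genes were. Tigit, Vsir, Cd96, Cd226 and Lag3 were all called without library 1, 3 or 4, where 53.9%, 60.6% and 62% of all genes were. They were also called with DESeq2 size factors (68.5% of all genes), with plain library totals (69.2%), with no count filter (37.2%) and with a mean count of at least 50 (78.9%). The same held in the 2 other tables described below, one made from the reads (62.5%) and one of M4 counts (78.4%). The receptors did not move together, since Tigit was highest in library 3, where Vsir was lowest. Cd96 was highest in library 3 too, but its libraries 2 and 3 could not be told apart (adjusted p = 0.653, likelihood ratio test). In the table made from the reads its CPM was highest in library 2.

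**Figure D2:**
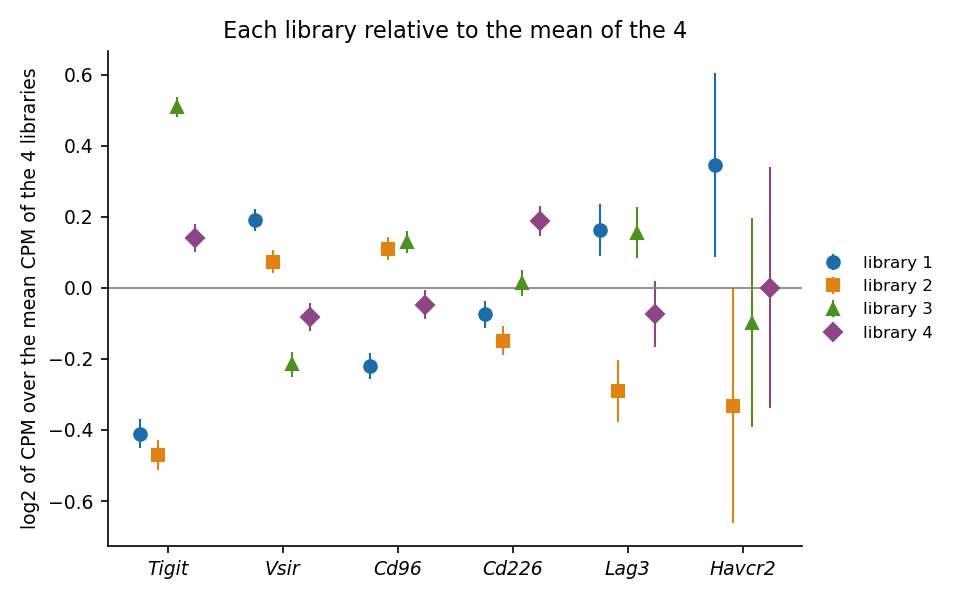
Scaled CPM of each gene in each library, as log2 of its ratio to the mean CPM of the 4 libraries, with bars of 1 counting SD (Poisson). Tigit spans 0.98 log2 units between libraries 2 and 3, while Havcr2, with 18 to 31 counts a library, has the longest bars of the 6 genes.

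Marker genes of several cell types were read in the same libraries. All 6 Treg markers and all 4 CD4 T cell markers were at 10 TPM or more in every library, as were 28.1% of protein-coding genes. At 1 TPM or more in every library the share of protein-coding genes was 45.2%. B cell markers summed to 88.8, 43.4, 21.4 and 60.1 TPM in libraries 1 to 4, with 3 of 4 at 1 TPM or more throughout. Monocyte and macrophage markers summed to 41.1, 18.8, 12.1 and 27.7 TPM, with 2 of 6 at 1 TPM or more. Both lists were highest in library 1 and lowest in library 3, as was Vsir. Both were higher in library 4 than in library 2, where Vsir stood at 141 and 143 TPM in that order. In the table made from the reads Vsir stood at 72.8 and 66.7 TPM in libraries 4 and 2. Lag3 stood at 29.9 TPM in library 1 and 29.0 in library 3, and Tigit was highest in library 3. Havcr2 was highest in library 1, but its libraries could not be told apart (adjusted p = 0.461, likelihood ratio test). Monocytes and macrophages are known to express Vsir and Havcr2 as well. The part of B cells, monocytes or macrophages in the RNA of any of the 6 receptors was not tested.

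Haemoglobin and other erythroid markers summed to 747, 3.74, 31.7 and 15.3 TPM, with 1 of 5 at 1 TPM or more throughout, so library 1 stood apart. Without library 1 the mean levels were 321 TPM for Tigit, 140 for Vsir, 127 for Cd96, 113 for Cd226, 24.2 for Lag3 and 1.16 for Havcr2, and the same 5 genes were called. Of 6 natural killer markers 1 reached 1 TPM in all libraries, and of 2 CD8 T cell markers 1 did. None of 4 granulocyte, 5 dendritic, 4 mast cell or 4 platelet markers did, where 45.2% of protein-coding genes did. The mast cell genes Cpa3, Fcer1a and Mcpt4 were listed at 0 in all 4 libraries of this table, but Cpa3 averaged 0.619 TPM in the direct table and 2.94 from M4 counts, which are described below.

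By the root mean square difference of centred log2(TPM + 0.1) profiles over the 4 libraries among 8341 genes, Atg2b, Gm8189 (a pseudogene) and Topbp1 were most like Tigit. Their differences were 0.04, 0.05 and 0.06 against a median of 0.45. Atg2b, for one, was at 6.77, 6.12, 13.5 and 10.4 TPM in libraries 1 to 4. Txnrd1, Pik3r4 and Zfp36l1 were most like Lag3, at 0.02, 0.02 and 0.03 against a median of 0.27. With 4 technical libraries such likeness is a description only, and 16 genes lay within 0.1 of Tigit and 240 within 0.1 of Lag3.

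Each library also had a table made directly from the reads on the same annotation and a table of whole-number gene counts on the older GENCODE M4. On a common scale, TPM recomputed over protein-coding genes, Tigit was at 379 ± 140 in the main table, 356 ± 128 in the direct table and 661 ± 246 in the M4 table (SD, n = 4). Cd226 was at 142 ± 7.94, 141 ± 10.7 and 99.8 ± 10.6, and Cd96 at 155 ± 16.7, 123 ± 8.80 and 261 ± 28.1 in the same tables. The M4 table was thus higher for Tigit and Cd96 and lower for Cd226.

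Lag3 was at 32.3 ± 6.03, 28.6 ± 3.79 and 50.7 ± 9.44 in the main, direct and M4 tables. Havcr2 was at 1.65 ± 0.395, 1.27 ± 0.309 and 0.770 ± 0.257, and Vsir at 185 ± 11.6, 146 ± 12.8 and 128 ± 10.02. Tigit was highest of the 6, Havcr2 lowest and Lag3 next to lowest by mean in all 3 tables.

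The middle of the order did not hold. Cd96 over Cd226 was -0.20 ± 0.10 on the log2 scale in the direct table and 1.39 ± 0.13 in the M4 table. Vsir over Cd96 was -1.02 ± 0.26 in the M4 table. Behind this, the M4 table gave 2.03 times the expected counts of the main table for Tigit, 1.96 for Cd96 and 1.83 for Lag3, but 0.823 for Cd226, 0.807 for Vsir and 0.543 for Havcr2. The median over 8407 genes was 1.21 (quartiles 0.822 and 1.59), and the cause was not tested.

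**Figure D3:**
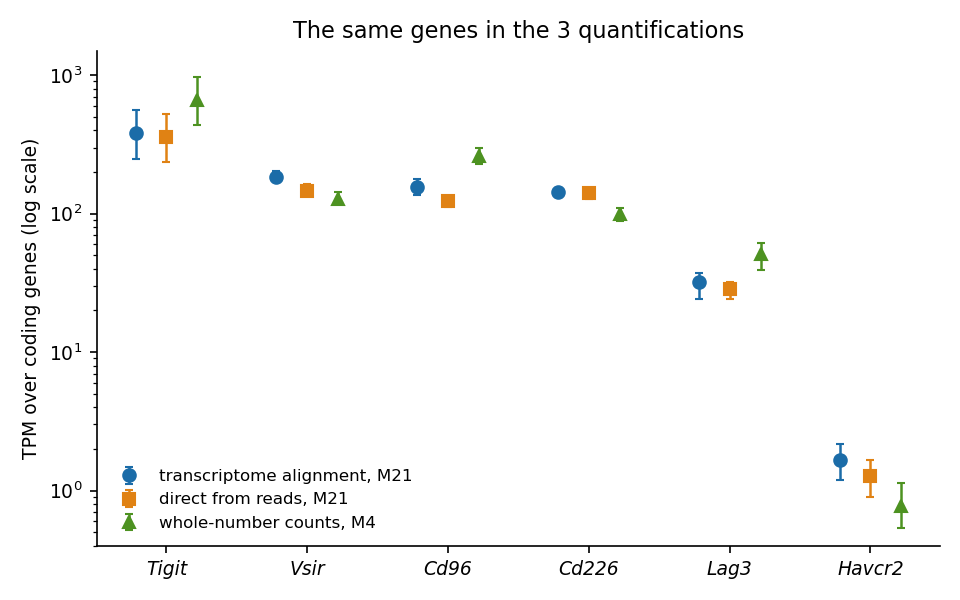
Mean TPM over coding genes (log axis) in the main, direct and M4 tables, with bars from the lowest to the highest of 4 libraries. The M4 points of Tigit, Cd96 and Lag3 lie above the other two tables, and those of Vsir, Cd226 and Havcr2 below.

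Tigit and Cd96 have 1 annotated transcript each, Tigit-201 of 4 exons and 241 codons and Cd96-201 of 15 exons and 602 codons, so neither has shares to split. Lag3 has 2. Lag3-201 (8 exons, 521 codons) took all of the Lag3 TPM in the main table in all 4 libraries, and 94.3% to 96.4% of the deposited posterior mean TPM. In the direct table it took 96.9%, 81.9%, 95.7% and 100% of TPM, the remainder going to Lag3-202, a short noncoding transcript with 0 to 10.5 estimated counts.

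Havcr2 has 2 transcripts. Havcr2-201 took 100% of TPM in libraries 2, 3 and 4 and 67.6% in library 1, where Havcr2-202 was given 9.52 of 31 expected counts. The direct table also gave Havcr2-202 reads in library 1 only, 7.24 estimated counts. The deposited percent of posterior mean TPM, another estimate in the main table, instead gave Havcr2-202 45.7%, 31.3%, 32.0% and 25.1% in libraries 1 to 4. Havcr2-202 lacks 147 coding bases (49 codons) of exon 2, the exon that encodes the immunoglobulin domain of TIM-3. The stretch of Havcr2-201 that holds them is shown from chr11:46456267-46456449 (mm10, plus strand), with the bases missing in Havcr2-202 in capitals.
Havcr2-201: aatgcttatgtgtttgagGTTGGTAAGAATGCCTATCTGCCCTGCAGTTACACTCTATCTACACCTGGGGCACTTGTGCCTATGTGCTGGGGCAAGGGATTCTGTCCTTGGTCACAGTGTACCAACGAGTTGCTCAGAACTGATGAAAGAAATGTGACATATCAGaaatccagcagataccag

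Reads were assigned to transcripts by estimation, and no count of reads across a junction was used here. With so few reads, the share of Havcr2-202 in library 1 is a weak measurement.

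Vsir has 7 transcripts, and which one led depended on whether reads or molecules were counted. The full-length Vsir-201 (4846 bases, 309 codons) took 67.4 ± 2.70% of expected counts and led in all 4 libraries. By TPM, which divides by length, Vsir-202 (1290 bases, 227 codons) led in 3 of 4 libraries. It took 36.9%, 41.3%, 39.1% and 31.9% of TPM in libraries 1 to 4, a mean of 37.3 ± 4.02%. Vsir-201 took 25.6 ± 2.26% of TPM.

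The retained-intron transcript Vsir-205 (641 bases) took 30.7 ± 4.68% of TPM but 8.16 ± 1.35% of counts. In library 4 it led by TPM with 37.7%, against 27.9% to 28.9% in the other libraries. In the direct table it took 30.9% of TPM in library 4, against 25.1% to 28.1% in the others. Complete coding transcripts together held 91.0 ± 1.34% of Vsir counts and 62.9 ± 3.81% of its TPM.

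Vsir-202 begins at another first exon (chr10:60349323-60349413, against chr10:60346851-60347103 in Vsir-201). It also joins exon 6 at an acceptor 3 bases further on, at position 60368532 in place of 60368529. Vsir-203 shares that acceptor but has the first exon of Vsir-201, 308 codons and 0 expected counts in all 4 libraries. The junction of exons 5 and 6 is shown for each, with the 3 extra bases of Vsir-201 in capitals (chr10:60367773-60368552, mm10, plus strand).
Vsir-201: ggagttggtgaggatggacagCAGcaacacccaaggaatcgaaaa
Vsir-202: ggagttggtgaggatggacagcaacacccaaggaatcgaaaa
Vsir-203: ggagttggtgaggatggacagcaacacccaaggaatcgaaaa

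In the region shown, the 3-base insertion is all that sets Vsir-201 apart from the other two.

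Cd226 has 10 transcripts. Cd226-207 (4494 bases, 333 codons) took 60.4 ± 5.72% of expected counts and led by counts in all 4 libraries. Cd226-201, which has the same number of codons and shorter ends, took 22.5 ± 3.91% of counts. By TPM the leader was Cd226-207 in 3 of 4 libraries at a mean of 24.8 ± 4.84%, close to Cd226-209 at 23.3 ± 4.52%.

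Cd226-209 is a 408-base transcript with an incomplete annotated end and 24 codons, and it led by TPM in all 4 libraries of the direct table, at 31.6 ± 3.95%. Complete coding transcripts held 86.4 ± 5.06% of Cd226 counts and 52.5 ± 8.64% of its TPM. Short transcripts beside a long one thus weigh on the gene-level TPM of Cd226 and Vsir. Tigit and Cd96 have no such split, but the only Tigit transcript is itself short, at 919 bases.

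**Figure D4:**
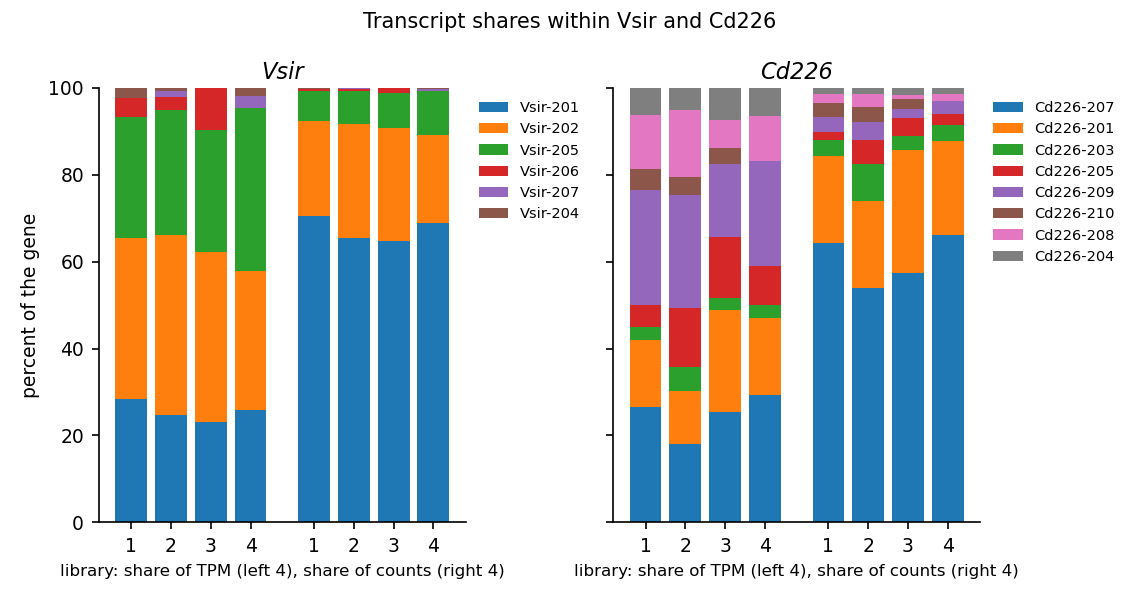
Percent of Vsir (left) and Cd226 (right) in each annotated transcript, as stacked bars by library, for TPM (left 4 bars) and expected counts (right 4 bars) of the main table. Vsir-201 and Cd226-207 fill most of the count bars, 67.4% and 60.4% on average, but 25.6% and 24.8% of the TPM bars.

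The ligands were unevenly present in the same RNA. Of 5 ligand genes of the TIGIT family only Pvr reached 1 TPM in all libraries, at 18.5, 23.0, 18.1 and 19.0 TPM. Nectin1, Nectin2, Nectin3 and Nectin4 had means of 0.540, 0.210, 0.0250 and 0.0800 TPM. Across protein-coding genes 45.2% reached 1 TPM in all libraries.

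Of 6 LAG-3 ligand genes 4 did. The MHC class II genes H2-Aa, H2-Ab1 and H2-Eb1 had means of 86.5 ± 46.1, 64.7 ± 34.7 and 76.3 ± 26.9 TPM. H2-Aa stood at 146, 87.6, 33.9 and 78.5 TPM in libraries 1 to 4. H2-Ab1 stood at 111, 57.2, 26.5 and 64.4 TPM and H2-Eb1 at 108, 82.7, 43.7 and 70.3. Like the B cell markers, each of these genes was highest in library 1 and lowest in library 3. Library 4 was above library 2 for the B cell markers and H2-Ab1, and below it for H2-Aa and H2-Eb1. The part of B cells in the RNA of these genes was not tested. Lgals3, the galectin-3 gene, was at 8.28 ± 2.66 TPM, and Fgl1 and Clec4g had at most 1 count in any library.

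Of the TIM-3 ligands, Hmgb1, a chromatin protein that also signals outside cells, was at 683 ± 69.6 TPM and Lgals9, the galectin-9 gene, at 230 ± 23.6. Ceacam1 was at 0.615 ± 0.373. Of the VISTA ligands, Selplg was at 395 ± 62.5 TPM and Lrig1 at 28.4 ± 6.19, while Igsf11 and Vsig8 were at 0.0100 and 0 TPM on average. So RNA for TIM-3 and VISTA ligands exceeded the RNA of Havcr2 and Vsir themselves, by mean TPM, for Hmgb1, Lgals9 and Selplg.

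**Figure D5:**
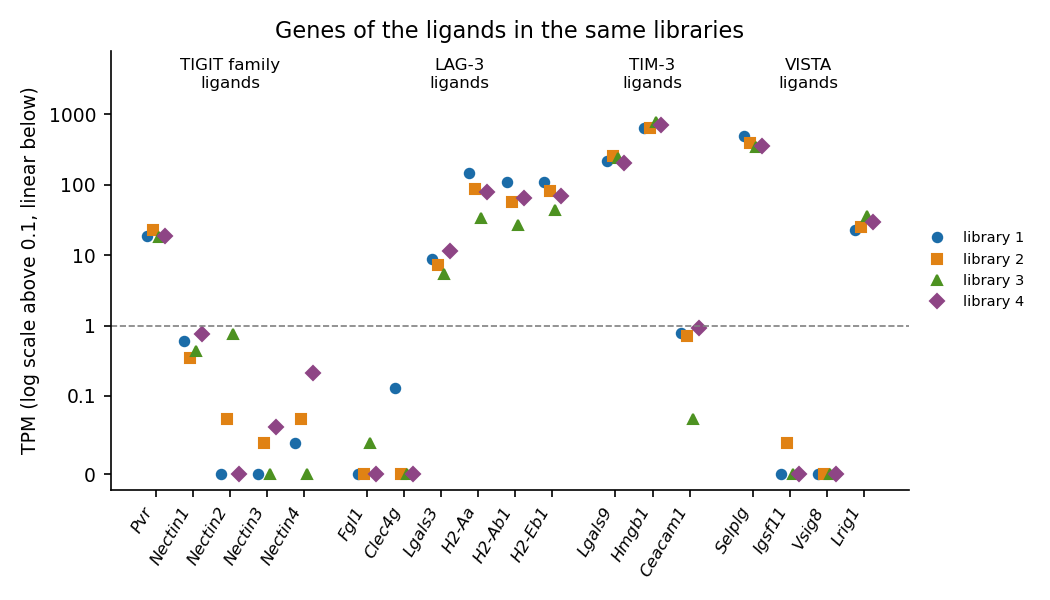
TPM of the listed ligand genes in the 4 libraries, on an axis that is linear below 0.1 and logarithmic above, with a dashed line at 1 TPM. Pvr, Lgals3, the 3 MHC class II genes, Lgals9, Hmgb1, Selplg and Lrig1 lie above the line in every library.

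All 10 signalling and shedding partners reached 1 TPM in all libraries, as did 45.2% of protein-coding genes. The phosphatase genes Inpp5d (SHIP-1) and Ptpn6 (SHP-1), whose products act downstream of inhibitory tails such as that of TIGIT, were at 103 ± 9.86 and 165 ± 51.1 TPM. Adam10 and Adam17, the proteases known to shed LAG-3, were at 54.9 ± 12.01 and 47.2 ± 10.7 TPM. Bag6, which encodes a TIM-3 tail partner, was at 14.6 ± 5.51, and the kinase genes Lck and Fyn at 1449 ± 151 and 69.8 ± 24.3.

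Of 9 regulators 8 reached 1 TPM in all libraries, where 45.2% of protein-coding genes did. Batf and Maf, transcription factors of activated T cells, were at 145 ± 39.0 and 73.3 ± 15.5 TPM, though Maf averaged 6.52 from M4 counts over length and Batf 140.4. Prdm1, which encodes Blimp-1, was at 9.69 ± 1.75. Eomes, the exception, was at 0.178 ± 0.147. Among related receptors, Pvrig, which binds a nectin, was at 7.74 ± 2.16 TPM and Crtam at 2.51 ± 0.721, while Havcr1, Timd2 and Timd4, relatives of Havcr2, were each under 1 TPM in all 4 libraries.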

How the data were processed

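The deposited gene and transcript tables held expected counts, TPM and a percent of gene TPM per transcript, with lengths and other interval columns, per the file headers. Per the submitters' notes, these came from reads aligned to the transcriptome (mm10, GENCODE M21). The authors' second table gave estimated counts and TPM per transcript, from the reads themselves. The third deposited table held whole-number gene counts on the older GENCODE M4, of which 22195 of 22457 rows matched. Programs and strand settings were not given in the sources used here. Rows outside the annotation (0.133% to 0.504% of counts) entered neither library sizes nor tests.

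The 6 genes and all lists were chosen with earlier results of these data known. Expected counts were rounded, scaled by TMM (edgeR 4.0.16) and tested, where the mean count reached 10, by a Poisson likelihood ratio test, adjusted by Benjamini-Hochberg (R 4.3.3). On simulated data for 13045 genes this found 58% of genes changed 1.5-fold and 92% of those changed 2-fold, and called 0.14% of unchanged genes. Apart from the changed genes, the simulated counts varied by counting error only, so these rates do not carry over to the real libraries. DESeq2 1.42.0 gave alternative size factors. Ratios used log2(TPM + 0.1), which understates differences of low genes. M4 counts were divided by the mean M21 effective length, at least 50 bases. Named genes were the 6 receptors, the fixed lists and the 3 genes most like Tigit or Lag3 among those with mean counts from 100 up, and Cdh23 was named for its overlap with Vsir. Python 3.11.15 was used for the rest.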

Additional observations from a re-analysis of the deposited data

Results flagged for a closer look

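In 74 sets of 4 library values, 7 had 1 library far from the other three (Dixon's ratio of the gap to the range, above its 95% critical value). Chance alone flags about 1 in 20 such sets. Havcr2-202 took 32.4% of Havcr2 TPM in library 1 and 0% in the other three, so that Havcr2-201 was at 67.6% there. By posterior mean TPM Havcr2-202 took 45.7% in library 1 and 25.1% to 32.0% in the other three. Vsir-205 took 37.7% of Vsir TPM in library 4, against 27.9% to 28.9% elsewhere. In the direct table it took 30.9% there, against 25.1% to 28.1% elsewhere. Cd226-203 took 5.37% of Cd226 TPM in library 2, against 2.73% to 3.08% elsewhere. In the direct table Cd226-203 was lowest in library 2, at 8.71% against 12.0% to 14.4%. Among the listed genes Tox, a transcription factor gene, was at 225 TPM in library 3 against 144 to 153 elsewhere. Erythroid markers summed to 747 TPM in library 1, and mast cell markers to 0.480 TPM in library 4, against 0.800 to 0.850 elsewhere. In both other tables library 4 was the highest, at 1.49 in the direct table and 5.56 from M4 counts.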

How the results depend on the processing

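No paired analysis was possible because there was 1 group. With each library left out in turn, mean TPM ran from 254 to 333 for Tigit, 111 to 115 for Cd226, 118 to 127 for Cd96, 24.2 to 27.8 for Lag3, 1.16 to 1.43 for Havcr2 and 140 to 150 for Vsir. In the direct table the means were 170 TPM (Tigit), 67.6 (Cd226), 58.7 (Cd96), 13.6 (Lag3), 0.607 (Havcr2) and 70.0 (Vsir). From M4 counts over length they were 523, 79.2, 207, 40.3, 0.614 and 102, and over coding genes 661, 99.8, 261, 50.7, 0.770 and 128. Main-table TPM over coding genes gave 142 for Cd226, 155 for Cd96, 32.3 for Lag3, 1.65 for Havcr2 and 185 for Vsir, and the direct table over coding genes 141 for Cd226. Posterior mean TPM gave 93.0 for Cd226, 98.0 for Cd96 and 120 for Vsir. That setting and the 2 other tables over coding genes were chosen after seeing the data.

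Separated neighbouring pairs numbered 2 of 5, against 4 in the direct table and 5 from M4 counts, and separated ratios 5 of 7, against 3 as CPM without length. Reversed were Vsir over Cd96 from M4 counts (log2 -1.02), Cd96 over Cd226 in the direct table (-0.20) and Tigit over Cd96 as CPM without length (-0.20). Of pairs not separated in the main table, Tigit over Vsir turned as CPM without length (-0.27), and Lag3 over Foxp3 as CPM without length (0.23) and without library 4 (0.07). The share of Cd226-207 was 17.97% of direct TPM and 60.4% of counts, of Vsir-202 31.7% and 23.6%, and of Lag3-201 93.6% of direct TPM. By posterior mean TPM, also chosen after seeing the data, Lag3-201 was at 95.2% and Havcr2-201 at 66.5%. Marker genes at 10 TPM or more in all libraries numbered 10, against 18 at 1 TPM, where 28.1% and 45.2% of protein-coding genes were. The causes were not tested. Without 1 library, 4 to 5 genes were called, and no scaling or count filter changed which of Tigit, Vsir, Cd96, Cd226 and Lag3 were called. Depth limits Havcr2, with 18 to 31 counts a library.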

Other observations

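Igsf11, which encodes the VISTA ligand VSIG-3, was at 3.00 ± 0.545 TPM in the direct table (SD, n = 4), against 0 TPM in 3 libraries and 0.0400 TPM in library 2 of the main table. From M4 counts over length it was at 0. The TIM-3 gene Havcr2 kept a low level in all 3 tables, with whole-number M4 counts 0.543 times the expected counts of the main table.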
